A study of Mus musculus with 35 samples.

Results

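Transcript levels of mouse neuroectoderm (NE) cells that carried a catalytic mutant of Tet3 (Tet3 m/m) were compared with those of Tet3 +/+ NE cells, both after transfection with an empty vector. The comparison took 2 Tet3 m/m and 2 Tet3 +/+ samples, 4 of the 35 samples of the series, chosen by genotype and vector alone. All 4 belonged to an experiment in which Tet3 +/+, Tet3 m/m and Tet3 -/- embryonic stem cells (ESCs) received either the empty myc vector or a vector for myc-tagged Dnmt1, the maintenance DNA methyltransferase, and were differentiated without LIF in 1 µM retinoic acid (RA) for 72 h, the vector being selected for with blasticidin on the last day. The ESCs were the male line v6.5, of mixed 129 and B6 background, plated on gelatin before differentiation. Tet3 m/m carried amino acid substitutions in the iron-binding site of the enzyme, made by CRISPR with a donor oligonucleotide, and the exon deletion of Tet3 -/- was also made by CRISPR. The labels did not say which clone each library came from or whether the libraries of a group were separate cultures, so p-values measured only the spread between these samples, which may be technical.

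TET3 belongs to the TET enzymes, which oxidize 5-methylcytosine to 5-hydroxymethylcytosine and further products and so open a path to DNA demethylation. In mouse ESCs the family is represented mainly by Tet1 and Tet2, and transcription of Tet3 begins with differentiation. RA without LIF drives ESCs out of self-renewal towards neural fates through nuclear RA receptors, and it also switches on Hox genes in their order along the body axis. Side products of this differentiation are extraembryonic endoderm-like and mesoderm-like cells.

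The values were gene counts divided by a size factor per library (normalized counts), and from 31155842 to 44732358 reads were counted per sample. The Tet3 +/+ pair lay at a distance of 58.35 and the Tet3 m/m pair at 59.91 (root of the summed squared log2 differences over the tested genes), whereas samples of different genotype were 112.2 to 116.4 apart. Libraries of a pair were not copies of each other, since their reads differed by 3.91 and 4.0 times the variance of pure counting in Tet3 +/+ and Tet3 m/m. The defining markers of neural progenitors were present in all 4 samples, with summed values of 22893 and 23461 in Tet3 +/+ and 21617 and 21186 in Tet3 m/m, although 6 of the 8 fell and 2 rose. Markers of other cells were present as well, and none of those in the table was at 0 in all samples. The summed level of 6 pluripotency markers was 33823 and 33918 in Tet3 +/+ against 88655 and 86465 in Tet3 m/m, and that of 8 extraembryonic endoderm markers was 136471 and 143277 against 368561 and 326418. Neuron markers summed to 1417 and 1489 against 2987 and 3089 (2 rose and 1 fell). Mesoderm markers (5 of 6 in the table) summed to 991 and 899 against 547 and 586. Of these 2 rose and 1, Hand1, fell, and the fall of Hand1 (values below) was larger than that of the whole sum. Trophoblast markers (3 of 4 in the table) summed to 3531 and 3748 against 520.0 and 479. Krt7 (values below) made up most of that sum in every sample, and 2 of these markers fell. Fibroblast markers summed to 20644 and 18795 against 3789 and 4080 (5 fell and 1 rose). In these bulk samples, fewer cells of a type and less RNA per cell cannot be told apart. The part of such cells in the gene groups described here was not tested.

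Tet3 itself was lower in Tet3 m/m. The Tet3 +/+ samples held 2957 and 3075 normalized counts and the Tet3 m/m samples 1125 and 964, a 2.89-fold lower mean (log2 fold change −1.53 ± 0.08, standard error; adjusted p = 5.58e-13). The groups did not overlap, and Tet3 -/- samples were at 2520.3 and 2571. Gene-level counts cannot show the substitutions or the exon deletion, so they did not check the labels of either line. Among 25 genes of DNA methylation and demethylation, 3 rose and 2 fell. The other dioxygenases Tet1 (2919 and 3350.1 against 5799.8 and 5885, log2 fold change 0.90 ± 0.09) and Tet2 (1823 and 1749 against 3844 and 4139, 1.16 ± 0.09) rose. Zfp57, the zinc finger protein that keeps methylation at imprinted loci, rose 2.67-fold, from 3324 and 3183 to 8600.0 and 8780.3. Gadd45b, linked to active demethylation, fell 1.72-fold. Values of the methyltransferases moved less than the threshold, with log2 fold changes of −0.37 ± 0.07 for Dnmt1, 0.37 ± 0.05 for the de novo enzyme Dnmt3a and 0.21 ± 0.05 for Dnmt3b.

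Of 18055 genes tested, 3831 (21.2%) were called in the limma fit over the 12 samples of the experiment, by a fold change of more than 1.5 together with an adjusted p below 0.05. Tet3 m/m was higher for 1862 of them (10.3%) and lower for 1969 (10.9%). These shares are the background for every gene group below, and the median log2 fold change of all genes tested was 0.0068. The groups did not overlap for 3824 of the called genes, but they also did not overlap for 72.3% of all genes tested. Rises exceeded 4-fold for 251 genes and falls for 333, and 10 genes rose and 35 fell by over 16-fold.

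The falls were led by Mest, a paternally expressed imprinted gene of the mesoderm. Mest was at 29757 and 28097 in Tet3 +/+, at 29317 and 28908 in Tet3 -/-, and at 135 and 121 in Tet3 m/m, a 226-fold lower mean (−7.81 ± 0.06; adjusted p = 1.85e-27). Tfap2b, a transcription factor of neural crest and surface ectoderm, went from 933 and 1017 to 1.83 and 7.81. With 1821 reads against 8, the ratio of Tfap2b was 226 with a 95% counting interval of 114.5 to 524.5, and its log2 fold change of −7.61 ± 0.32 ranged from −8.43 without m/m 2 to −6.79 without m/m 1. In both genes the Tet3 m/m samples stood far below all samples of the other genotypes. Serpinb9e, a serine protease inhibitor, was at 116 and 128 in Tet3 +/+ and had no read in Tet3 m/m, at least 36.6-fold lower against a floor of 3 reads in each library. The other large falls were those of the transmembrane gene Upk3b (38.3-fold lower), the matrix genes Col3a1 (34.4-fold) and Hapln1 (27.2-fold), the growth factor Ptn (27.9-fold), Aldh1a7 (23.4-fold), the X-linked homeobox gene Rhox6 (23.5-fold), the ligand Wnt6 (22.6-fold) and Magea9 (18.6-fold). Their adjusted p-values lay between 8.72e-20 and 7.24e-15.

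The largest rise was that of Frmpd4, a scaffold gene on the X chromosome. Frmpd4 had 4 reads in the Tet3 +/+ samples together and 4223 in Tet3 m/m, at 3.95 and 0 against 2320.4 and 2193 normalized counts, so that the ratio of reads had an interval of 414.8 to 3903. It had no read in Tet3 -/-. Its log2 fold change of 9.99 ± 0.59 was 8.83 without the second and 11.14 without the first Tet3 +/+ column. Among the 12 largest rises, Klhl34 (18.5-fold), the mitochondrial carbonic anhydrase Car5b (17.5-fold), Egfl6 (10.7-fold) and the calcium-binding S100g (9.06-fold) were also X-linked and lay in the same stretch of that chromosome. The others were the Ras exchange factor Rasgrf2 (25.6-fold), the commissural axon receptor Robo3 (11.4-fold), Vstm2l (10.4-fold), the peptide hormone genes Pyy (9.85-fold) and Penk (9.41-fold), Samd9l (9.63-fold) and the arginine methyltransferase Prmt8 (8.38-fold).

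**Figure D1:**
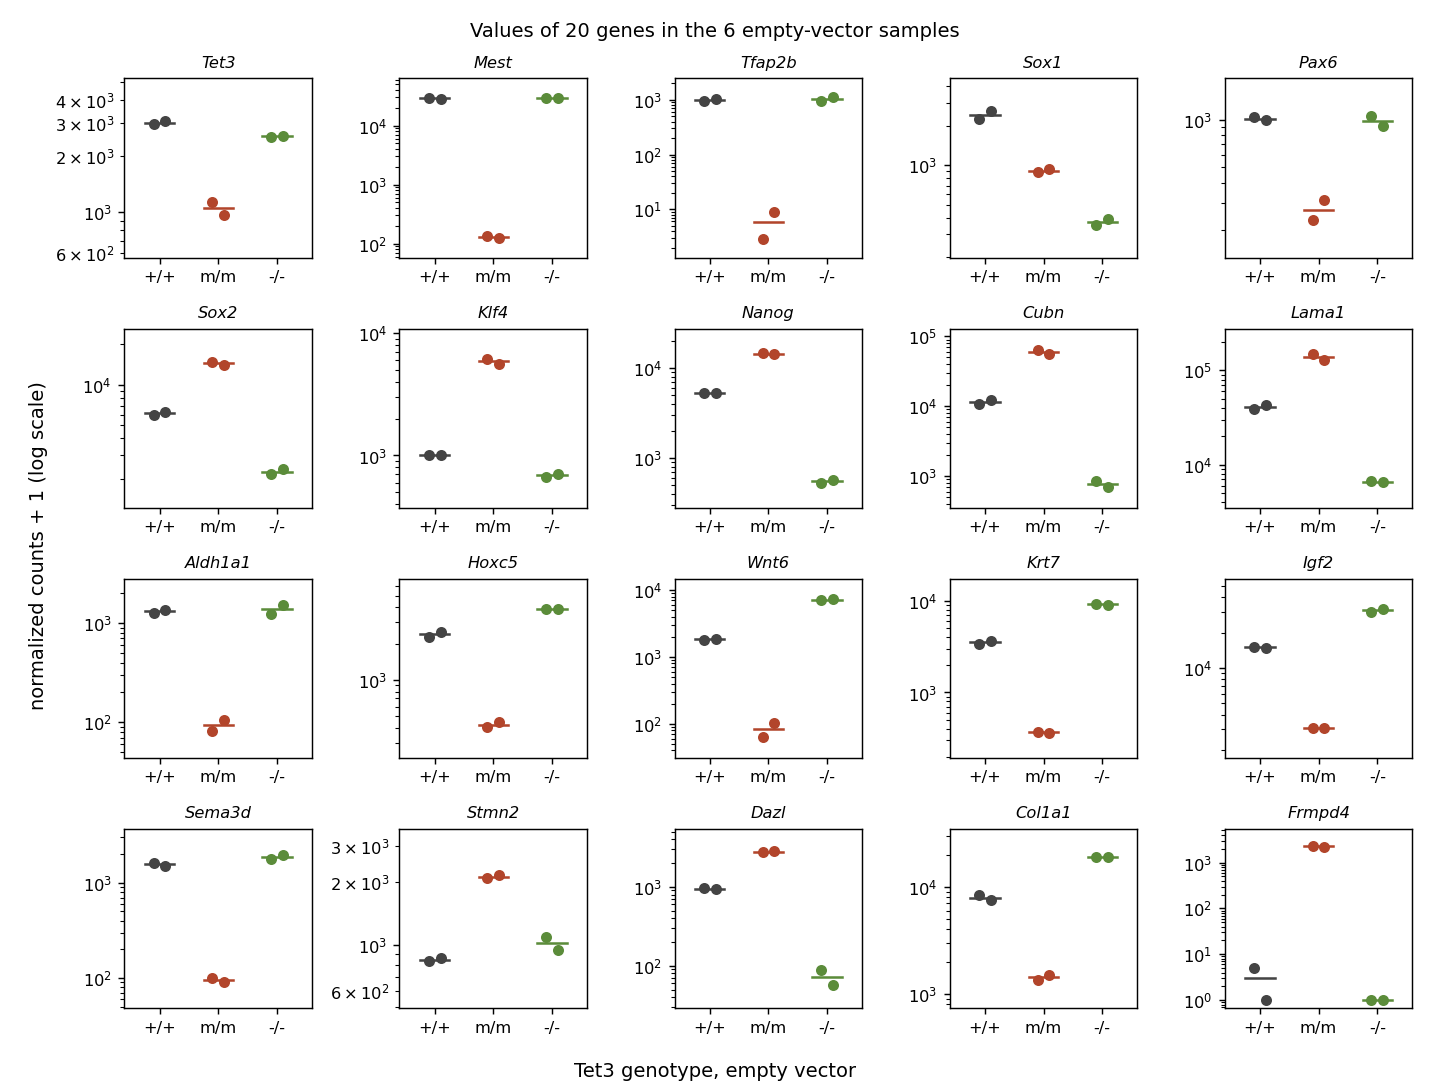
Normalized counts plus 1 (log axis) of 20 genes in the 6 empty-vector samples, grouped by Tet3 genotype, each point a sample and each bar the mean of its group (n = 2), with an axis of its own in each panel. Points of Tet3 +/+ and Tet3 m/m do not overlap in any of the 20 panels, with Mest at 135 and 121 in Tet3 m/m and Frmpd4 at 2320.4 and 2193. Several of these genes were chosen after their values were seen, and the groups also do not overlap for 72.3% of all genes tested.

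Differences were not spread evenly over the chromosomes. The following stretches were found from the values themselves and are a description without a test. On chromosome 6, the 385 tested genes from Foxp2 to Aak1 had a median log2 fold change of −0.7383, with 216 falls and 10 rises, against 0.0069 for the 467 genes of the rest of the chromosome. Tet3, Mest, Ptn, Cyp26b1 and the Hoxa cluster lie in this stretch, and the fall of Mest was far larger than its median. Chromosome 8 as a whole, which carries Sox1, Irx3, Irx5 and Hand2, had a median of −0.4451 over 936 genes, with 288 falls and 22 rises. The Tet3 -/- samples with the empty vector, set against the same Tet3 +/+ samples, had chromosome 8 medians of −0.36 and −0.37. A shift of both lines and a shift of the shared Tet3 +/+ samples cannot be told apart here. On day 3 the medians were −0.38, −0.34 and −0.30 in Tet3 m/m but 0.17 and −0.32 in Tet3 -/-. The third Tet3 +/+ sample of day 3 lay 0.20 above the others. In the Tet3-CD experiment described below, Tet3 m/m and Tet3 -/- with the empty vector were at −0.08 and 0.09. The last 61 tested genes of the X chromosome, from Phex to Erdr1, had a median of 2.4954, a 5.64-fold higher level. In this X stretch 59 genes rose and none fell. Eif1ax, a translation initiation factor (4185 and 4396 against 27869 and 27875), and Pdha1, the E1 subunit of pyruvate dehydrogenase (6480.3 and 6673 against 50008 and 50330.0), were named after their values were seen. The medians of the other 17 autosomes lay between −0.0067 and 0.0797.

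Of 11 tested genes of the Y chromosome, 4 fell and 3 rose, and the 4 that fell were named after their values were seen. Uty was at 379 and 433 against 24.7 and 20.8, Ddx3y at 584 and 634 against 93.2 and 96.4, Eif2s3y at 490.0 and 488 against 115 and 91.2, and Kdm5d at 21.7 and 16.2 against 5.48 and 5.21. All are broadly expressed in male cells. The median log2 ratio of the Y genes to Tet3 +/+ varied between Tet3 m/m libraries. It was −0.35 and −0.48 here, −1.86 and −1.42 with the Dnmt1 vector (over empty-vector Tet3 +/+) and −4.08, −0.45 and −0.82 on day 3. In the Tet3-CD experiment it was −3.45 with the empty vector, over 6 genes. Tet3 -/- libraries varied as well. Those with the empty vector were at −0.30 and −0.17, those of day 3 at −0.86 and 0.86, and that of the Tet3-CD experiment at 1.25. Without chromosomes 8 and Y and the stretches of chromosomes 6 and X, 3229 genes were called among 16662 tested (19.4%), 1768 higher and 1461 lower. The excluded regions held 15.7% of the calls. Gene copy number was not measured in these files, and its part in these shifts was not tested.

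**Figure D2:**
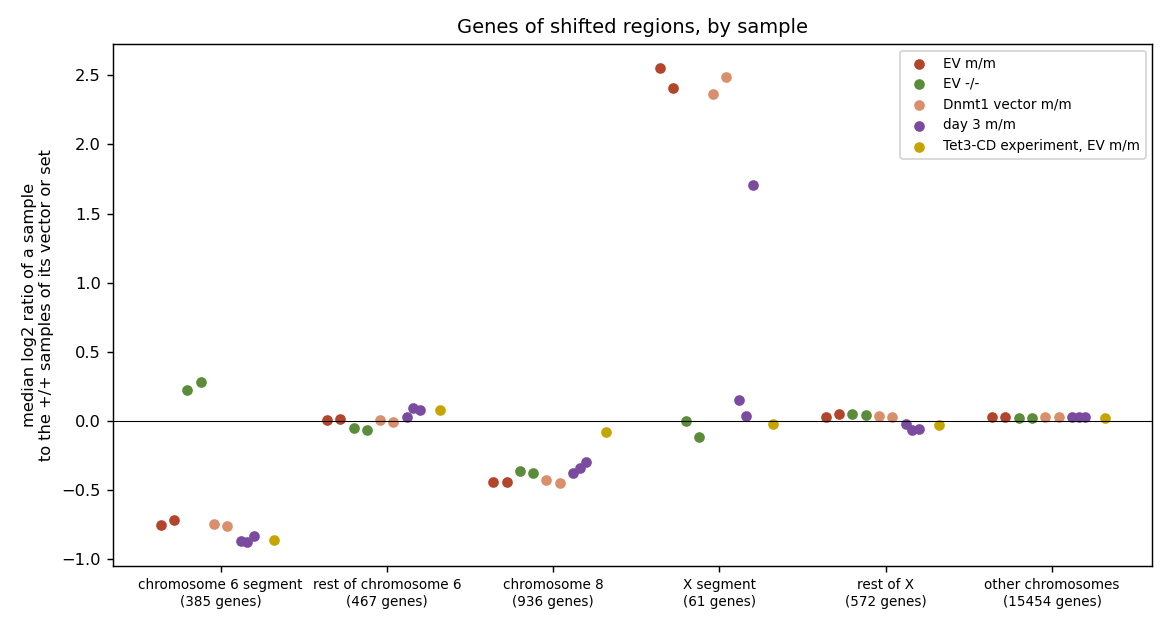
Median log2 ratio of each sample (one point each) to the Tet3 +/+ samples of its set, over the genes of each region. The number of genes tested is under each region's name. In both transfection experiments the Tet3 +/+ reference had the empty vector, also for samples with the Dnmt1 vector, although the axis names a sample's own vector. The chromosome 6 stretch is low in all Tet3 m/m samples shown, from −0.88 to −0.71, and not in Tet3 -/-, whereas the X stretch is high in the Tet3 m/m samples of both vectors and in a single Tet3 m/m sample of day 3 (1.71).

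Transcription factors of neural progenitors moved in both directions. Of 34 tested, 10 rose and 13 fell, with a median log2 fold change of −0.18. Pax6, a factor of dorsal neural progenitors, was at 1041 and 995 in Tet3 +/+ and at 231 and 309 in Tet3 m/m (3.77-fold lower, −1.93 ± 0.12; adjusted p = 2.04e-11). Zic1, of dorsal neural tube and neural crest, fell 6.51-fold from 394 and 480.1 to 64 and 70.3, and Msx3, of dorsal spinal cord, fell 4.59-fold. Sox1, the early NE marker, fell 2.68-fold, from 2254 and 2592 to 881 and 929, and lies on chromosome 8. Sox5 was at 132 and 132 against 95 and 72.9 (−0.66 ± 0.24; adjusted p = 0.0264), a call that was lost without m/m 2 (−0.47) and without either Tet3 +/+ column (both −0.66). In the opposite direction, Sox2, a factor of both ESCs and neural progenitors, rose 2.34-fold from 5990.4 and 6301 to 14731 and 14051. Olig2, a factor of ventral progenitors, rose 7.38-fold to 313 and 337, Gbx2, of ESCs and the hindbrain, rose 3.55-fold, and Nkx6-2 rose 3.28-fold. Outside the shifted regions the list held 10 rises and 10 falls of 31.

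Proneural and neuronal genes moved in both directions. Of 35 tested, 12 rose and 6 fell. The falls included Insm1, a zinc finger factor of neuronal differentiation (122 and 114 against 18.3 and 23.4, 5.66-fold lower), Dcx of migrating neurons (5.17-fold) and Ebf2 (2.92-fold). The rises included genes of neurons, the neurofilaments Nefl (130.4 and 124 against 706 and 596, 5.12-fold higher) and Nefm (2.66-fold), the reticulon Rtn1 (3.23-fold) and the microtubule regulator Stmn2 (829.8 and 863 against 2091 and 2161, 2.51-fold). The proneural Neurog2, whose values were low at 33.6 and 23.2 against 11 and 15.6, did not pass (−1.04 ± 0.46; adjusted p = 0.0704). In the Notch pathway, which keeps progenitors from differentiating, 3 of 29 genes rose and 7 fell. Hes3, a Notch-linked repressor, was at 42.5 and 39.4 and had no read in Tet3 m/m (at least 12.3-fold lower). Further falls were those of the target Hey1 (2.51-fold), the glycosyltransferase Lfng (2.31-fold) and the feedback inhibitor Nrarp (2.16-fold). The receptor Notch1 (−0.23 ± 0.06) and the target Hes1 (0.38 ± 0.06) stayed under the fold threshold, and Hes5, at 20.7 and 19.7 against 15.5 and 9.12, did not pass (−0.71 ± 0.50; adjusted p = 0.266).

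Among genes that carry, make or respond to RA, falls outnumbered rises. Of 26 tested, 12 fell, 3 rose and 11 were not called, and the median log2 fold change was −0.42. Aldh1a1, an RA-synthesizing dehydrogenase, fell 14.2-fold from 1272 and 1349 to 80.4 and 104 (−3.82 ± 0.15; adjusted p = 4.77e-15). Crabp2, which delivers RA to its receptors, fell 4.11-fold from 7892 and 8405 to 2023 and 1946. Cyp26b1, an RA-degrading enzyme in the chromosome 6 stretch, fell 3.84-fold, and Rdh10, which makes retinaldehyde, fell 3.27-fold. The rises included Cyp26c1 (2.05-fold higher), also RA-degrading, and the retinol carrier Rbp4 (1.80-fold higher). The receptors Rara and Rarg had log2 fold changes of −0.09 ± 0.05 and 0.08 ± 0.06 and were not called. The related receptor Rarb, itself a direct RA target, was at 878 and 917 against 526 and 488 and fell 1.77-fold. Cyp26a1, the RA-degrading enzyme that is also a direct target, was at 5657 and 6335 against 9066 and 8469, with a log2 fold change of 0.55 ± 0.08 that stayed just under the threshold, and was above it without m/m 2 (0.60) or without the second Tet3 +/+ column (0.63).

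RA receptors bind direct repeats of a hexamer, and the promoters of both genes hold such a repeat with a spacer of 5 bases. They are shown because both are direct RA targets of which Rarb was called and Cyp26a1 was not. The 250 bases before the start of each gene, from RefSeq on GRCm38.p6, are in lower case with the matching hexamers in capitals. Rarb lies at chr14:16575477-16575726 on the minus strand, with the repeat 53 bases before the start, and Cyp26a1 at chr19:37697558-37697807 on the plus strand, with the repeat 32 bases before the start and read from the opposite strand.
Rarb: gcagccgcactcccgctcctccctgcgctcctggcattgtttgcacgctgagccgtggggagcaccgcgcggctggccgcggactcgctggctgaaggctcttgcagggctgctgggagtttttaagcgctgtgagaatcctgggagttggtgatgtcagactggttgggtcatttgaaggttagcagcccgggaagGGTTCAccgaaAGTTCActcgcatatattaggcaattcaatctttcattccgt
Cyp26a1: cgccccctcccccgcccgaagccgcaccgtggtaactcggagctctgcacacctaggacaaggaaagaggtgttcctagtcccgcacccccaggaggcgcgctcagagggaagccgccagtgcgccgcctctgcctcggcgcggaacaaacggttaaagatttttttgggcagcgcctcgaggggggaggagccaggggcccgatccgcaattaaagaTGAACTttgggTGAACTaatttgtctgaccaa
The hexamers searched were AGTTCA and, beside it, GGTTCA, together with AGGTCA as well as GGGTCA. Direct repeats of these with this spacer, on either strand, were in 32 of 32851 promoters (0.0974%), of 31 genes. Of the 7 such genes tested, Prokr2 (2.50) and Syndig1 (1.63) rose, Ppbp (−3.08) and Rarb (−0.82) fell, by log2 fold change, and Cyp26a1, Blvrb and Cfap45 were not called. Rarb and Cyp26a1 were chosen with their values known, and the other genes were named by the motif and not by their values.

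The Hox genes, which pattern the body axis, were lower for 13 of 34 tested and higher for 2, with a median of −0.37. Hoxc5 fell most, 5.66-fold, from 2276 and 2508 to 403 and 443 (−2.50 ± 0.08; adjusted p = 1.24e-16). Hoxc6 (4.72-fold lower), Hoxd4 (3.85-fold) and Hoxa4 (3.68-fold) followed. Of these, Hoxa4 is in the chromosome 6 stretch, and without the shifted regions 9 of 24 Hox genes fell and 1 rose. Hoxb1, which responds early to RA, was not called, at 2528 and 2491 against 2667 and 2622. Hoxb4 had a log2 fold change of 0.13 ± 0.06.

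**Figure D3:**
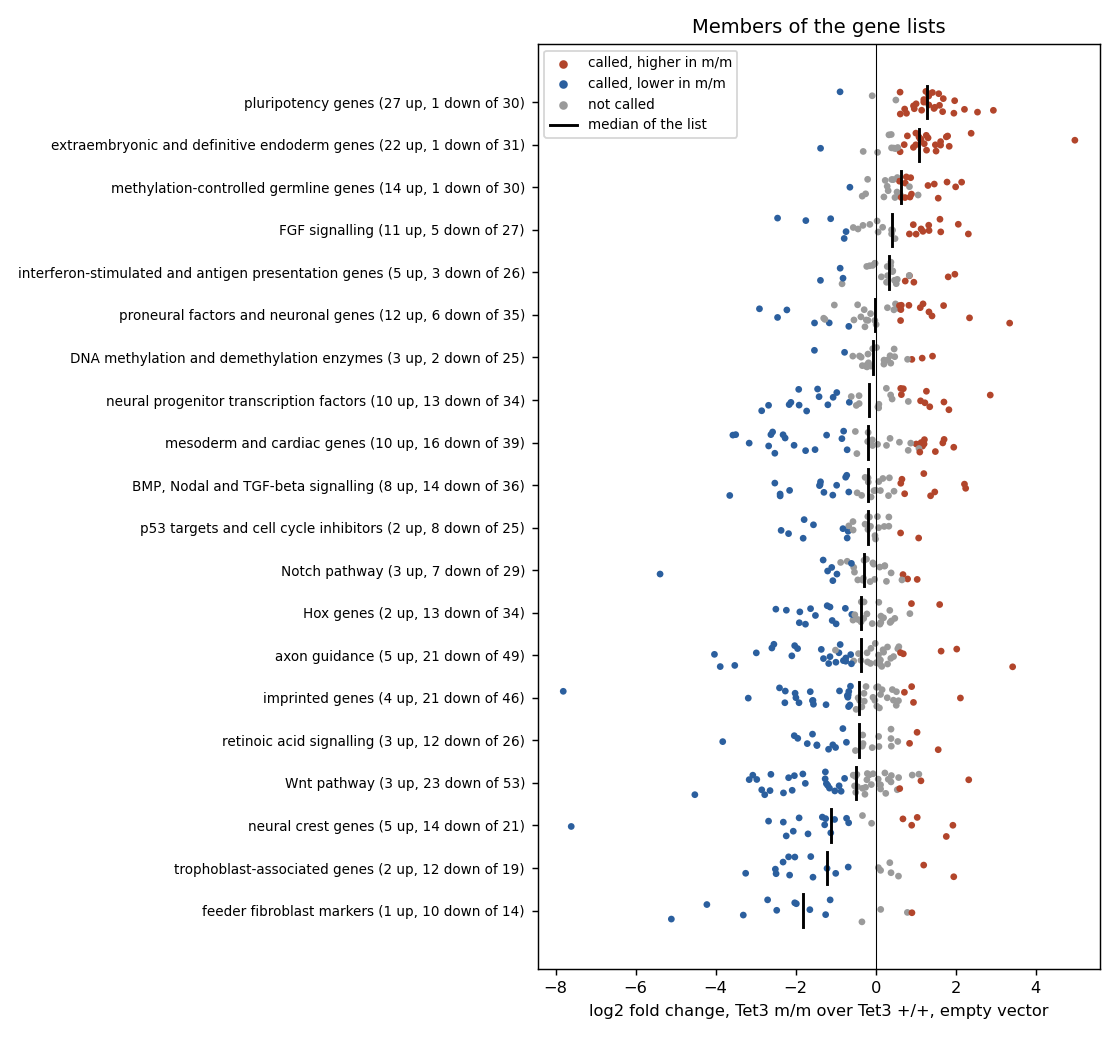
Log2 fold change of Tet3 m/m over Tet3 +/+ for the tested members of 20 gene lists (one point per gene, vertical bar at the list's median), with the numbers called in each direction beside the list's name. Points of the pluripotency list lie mostly right of 0 (27 up, 1 down of 30) and those of the fibroblast list mostly left of it (1 up, 10 down of 14).

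Pluripotency genes were higher almost throughout. Of 30 tested, 27 rose and 1 fell, against 10.3% rises among all genes, and their median log2 fold change was 1.28. The core factors were among them. Pou5f1 was at 4780.2 and 4831 in Tet3 +/+ and at 12155 and 11920.3 in Tet3 m/m (2.50-fold higher, 1.32 ± 0.05; adjusted p = 1.28e-14), and Nanog at 5286 and 5275 against 14643 and 14297 (2.74-fold). Klf4, also of naive pluripotency, was at 1016 and 1003 against 6126 and 5646 (5.83-fold) and Tfcp2l1, of the same network, at 3057 and 3019.6 against 12083 and 11739 (3.92-fold). Lefty1, a Nodal antagonist, rose 4.65-fold and Otx2, a factor of the epiblast and anterior neuroectoderm, 7.74-fold from 67.2 and 55.7 to 487 and 464. Factors of ESCs and of the epiblast thus both rose in these samples. Dppa3, a maternal and germline factor, was the gene that fell (326 and 292 against 182 and 151), and its call was lost without m/m 2 (−0.76) and without the first Tet3 +/+ column (−0.81).

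Genes of extraembryonic and definitive endoderm rose for 22 of 31 tested and fell for 1, with a median of 1.08. Cubn, the endocytic receptor of visceral endoderm, was at 10788 and 12257 against 64569 and 55679 (5.22-fold higher, 2.38 ± 0.20; adjusted p = 2.97e-09). The basement membrane gene Lama1 rose 3.40-fold, from 38876 and 42768 to 148511 and 128789, and the endoderm factor Sox7 rose 3.57-fold. Cer1, a secreted inhibitor of anterior visceral endoderm, had 2 reads in Tet3 +/+ and 99 in Tet3 m/m, a ratio of 49.8 with an interval of 13.4 to 417, and its log2 fold change moved between 4.19 and 5.76 as either Tet3 +/+ column was left out. The regulator Gata6 passed narrowly, at 2145 and 2199 against 3276 and 3343 (1.52-fold). Rhox5, an X-linked homeobox gene of extraembryonic tissue, fell 2.6-fold. The marker sums given above moved in the same direction as this list and the pluripotency list. Those markers are members of these lists in the same samples, so the sums are no separate support.

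Mesoderm and cardiac genes did not move as a group, since 16 of 39 fell and 10 rose. Hand2 (11.8-fold lower), on chromosome 8, and the cardiac actin Actc1 (11.6-fold) fell most, and the smooth muscle actin Acta2 went from 8759 and 8250.5 to 1147 and 1539 (6.33-fold lower). Hand1, a factor of mesoderm and trophoblast, fell from 735 and 686 to 142 in both Tet3 m/m samples. Myl9, a smooth muscle light chain, fell 4.81-fold, Hrc, a calcium-binding protein of the sarcoplasmic reticulum, 2.36-fold, the adhesion molecule Mcam 1.76-fold and Bin1, which shapes muscle membranes, 1.64-fold. Wnt10a was at 52.4 and 44.1 against 7.31 and 2.6 (−3.16 ± 0.62), between −3.77 without m/m 1 and −2.56 without m/m 2. Rises were found for Eomes (3.85-fold), a factor of early endoderm and mesoderm, Pdgfra (3.26-fold), Mixl1 (3.33-fold) and Gata4 (2.80-fold).

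Trophoblast-associated genes were lower for 12 of 19 and higher for 2, with a median of −1.22. Krt7, a keratin of trophoblast and simple epithelia, was at 3410.1 and 3641 against 374 and 365 (9.55-fold lower). Gata3 fell 5.58-fold and Hand1 5.01-fold. Cited1 and Eomes were the members that rose. Neural crest genes were lower for 14 of 21 and higher for 5, with a median of −1.12. Besides Tfap2b and Zic1, Msx1 went from 2385 and 2287 to 469.8 and 470.1 (4.97-fold lower) and the repressor Snai2 fell 4.8-fold. Foxd3, a factor of both premigratory crest and ESCs, rose 3.41-fold, and the receptor Ngfr 2.06-fold. Fibroblast markers were lower for 10 of 14 and higher for 1, with a median of −1.82. Col3a1 was at 2906 and 2696 against 66.7 and 96.4, Col1a2 at 7343 and 6748 against 1085 and 1076 (6.52-fold lower), and the proteoglycan gene Dcn at 506 and 442 against 46.6 and 46.9 (10.1-fold). Twist2 was at 73.1 and 76.5 against 15.5 and 0, and its log2 fold change of −4.22 was −2.20 without m/m 2 and −6.24 without m/m 1. Thy1, which neurons also express, rose 1.87-fold. Feeder cells are removed before differentiation, and whether any remained was not tested.

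Germline genes that are silenced by promoter methylation were higher for 14 of 30 tested and lower for 1, with a median of 0.62. Dazl, an RNA-binding protein of germ cells, was at 963 and 935 against 2795 and 2804 (2.95-fold higher, 1.56 ± 0.16; adjusted p = 6.23e-08). Nlrp4c rose 4.03-fold, and Sycp2, of the synaptonemal complex, rose 3.46-fold from 61.2 and 74.2 to 228 and 239.6. The largest rise of the list, Tex19.2, was at 2.14 on the log2 scale and lost its call without the first Tet3 +/+ column (1.66) and without m/m 1 (2.13) or m/m 2 (2.16). Tdrd1, a piRNA factor, fell from 454 and 365 to 271 and 249, a call lost without m/m 2 (−0.58) or the first Tet3 +/+ column (−0.49). Many of these genes are also on in ESCs, and the part of the higher pluripotency genes in this list was not tested.

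Imprinted genes were lower for 21 of 46 tested and higher for 4, against 10.9% falls among all genes, with a median of −0.42. After Mest, Nap1l5 had the largest fall, at low values (22.7 and 11.6 against 0 and 2.6). Its log2 fold change of −3.19 moved between −4.11 without m/m 2 and −2.26 without m/m 1. Asb4, close to Peg10, fell 5.33-fold. Igf2, a paternally expressed growth factor, was at 15086 and 14913 against 3099 and 3110.0 (4.83-fold lower, −2.27 ± 0.05; adjusted p = 7.52e-19). The maternally expressed H19, next to Igf2 and controlled by the same imprinting region, fell as well, from 38436 and 35738 to 7523 and 7947 (4.79-fold lower). Igf2 and H19 thus fell together and to a like degree. Ddc rose 1.92-fold and Dio3 1.89-fold. Meg3, a maternally expressed RNA, was at 13352 and 12509.6 against 13290.3 and 13010.3, whereas Dlk1 of the same domain, not chosen by the rule for named genes, fell 3.78-fold. Outside the shifted regions, 18 of 42 imprinted genes fell and 4 rose.

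ZFP57, whose gene rose, binds methylated TGCCGC at imprinted control regions. The promoters of Mest and Plagl1, a paternally expressed zinc finger gene that fell from 6872 and 6963 to 1720.0 and 1699.5 (4.05-fold lower), are shown because they hold these letters. They are again the 250 bases before the start, from RefSeq on GRCm38.p6, with TGCCGC or its reverse complement GCGGCA in capitals. Mest lies at chr6:30737800-30738049 on the plus strand, with matches 242 and 67 bases before the start. Plagl1 lies at chr10:13090582-13090831 on the plus strand, with a match 90 bases before the start.
Mest: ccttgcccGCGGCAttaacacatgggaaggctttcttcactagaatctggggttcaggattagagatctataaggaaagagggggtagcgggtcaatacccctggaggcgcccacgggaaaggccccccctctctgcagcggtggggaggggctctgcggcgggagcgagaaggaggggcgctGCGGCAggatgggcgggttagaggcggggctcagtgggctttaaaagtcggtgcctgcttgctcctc
Plagl1: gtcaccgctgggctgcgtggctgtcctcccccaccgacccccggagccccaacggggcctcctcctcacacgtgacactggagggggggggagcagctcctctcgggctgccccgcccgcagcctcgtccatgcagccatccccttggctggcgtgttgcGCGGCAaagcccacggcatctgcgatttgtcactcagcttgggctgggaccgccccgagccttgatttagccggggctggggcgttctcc
The windows hold 14 (Mest) and 19 (Plagl1) CpG dinucleotides. The letters were in 11.6% of all promoters on either strand. Of 40 tested imprinted genes with a promoter in the table, 12 held them, and 6 of these 12 fell. That is near the share of the whole list, in which 21 of 46 fell (45.7%). Methylation of these promoters was not analysed here.

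Wnt genes were lower for 23 of 53 tested and higher for 3, with a median of −0.50. The ligand Wnt6 was at 1809.8 and 1884 against 62.1 and 102, Wnt10a is given above, and Wnt7a fell 7.93-fold. The receptor Lgr5 fell 8.37-fold, from 239 and 197 to 18.3 and 33.9. Axin2, the feedback inhibitor that marks Wnt signalling, was at 2143 and 1934 against 948 and 1057 (2.03-fold lower). The rises included the secreted inhibitor Sfrp5 (5.00-fold, from 475 and 547 to 2585 and 2523) and the receptor Fzd5 (2.19-fold). The falls thus included ligands, a receptor and a feedback gene.

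Of 36 genes of BMP, Nodal and TGF-β signalling, 14 fell and 8 rose. The ligand Bmp5 was at 104 and 76.5 against 7.31 and 5.21, Bmp4 at 1416 and 1524 against 272 and 238 (5.76-fold lower), and the antagonist Nog (5.25-fold) and ligand Tgfb3 (5.26-fold) fell too. The Nodal antagonists Lefty1 and Lefty2 (2.78-fold) rose, as did the activin subunit Inhbb (4.79-fold) and the ligand Bmp6 (2.58-fold). In FGF signalling 11 of 27 genes rose and 5 fell, and the median was 0.40. The FGF-induced factors Etv4 (434 and 459 against 2124 and 2321, 4.98-fold higher) and Etv5 (3.04-fold) rose with the feedback inhibitor Spry4 (3.07-fold) and the ligand Fgf10 (4.18-fold). Fgfbp3 fell 5.55-fold and the receptor Fgfr1, on chromosome 8, 1.73-fold.

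Axon guidance genes, many of which also act in mesenchyme and neural crest, were lower for 21 of 49 and higher for 5. The semaphorin Sema3d was at 1620.1 and 1492 against 98.7 and 89.9 (16.5-fold lower, −4.03 ± 0.11; adjusted p = 1.58e-17). The receptor Epha3 (15.7-fold), Sema3a (11.6-fold) and the ephrin Efna5 (7.99-fold) followed. Robo3 and Epha2 rose, the latter from 2997 and 2987 to 12036 and 12279.7. Of 25 p53 targets and cell cycle inhibitors, 8 fell and 2 rose. The inhibitors Cdkn2b (5.20-fold) and Cdkn2a (3.52-fold) fell, as did the death receptor Fas (3.67-fold). Ccnd1, a cyclin kept in this list although it drives the cell cycle, fell 4.53-fold from 3631 and 3595 to 772 and 822, whereas Pmaip1, a p53-induced BH3 protein, rose 2.10-fold. Mdm2, a direct p53 target, had a log2 fold change of 0.04 ± 0.05 and Trp53 itself of −0.01, and neither was called. Of 26 interferon-stimulated and antigen presentation genes, 5 rose and 3 fell. Ifitm1, also an early germline and epiblast gene, rose 3.93-fold from 1270.4 and 1125 to 4754 and 4653, and Ifit2 (2.62-fold), Bst2 (1.85-fold) and Tap1 (1.76-fold) fell. Pdik1l, a kinase gene outside these lists, was at 587 and 531 against 761 and 697 (0.38 ± 0.10) and was not called.

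The same genotypes were measured in samples that share no library with this comparison. With the Dnmt1 vector, 3640 genes (20.2%) were called between Tet3 m/m and Tet3 +/+. Of the 1862 empty-vector rises 1367 were rises there too, 73.4% of the empty-vector and 75.6% of the Dnmt1-vector rises, and 1450 falls were shared (73.6% and 79.1%). A single gene was called in the opposite direction. These samples belong to the same experiment, and the X stretch was high in their Tet3 m/m samples too (2.36 and 2.49 over empty-vector Tet3 +/+). The labels did not say whether they came from the same clones, so recurrence in separate clones was not tested by them. Dnmt1 itself was at 22799 and 23768 in Tet3 +/+ with the Dnmt1 vector, against 14678 and 15225 with the empty vector. Of the pluripotency genes 27 empty-vector rises recurred as rises, of the endoderm genes 21, and of the imprinted genes 19 of 21 falls recurred.

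A test of the difference between the vectors called 109 genes (0.604%), far fewer than were called within either vector. In 97 of them the gap between the genotypes was smaller with Dnmt1 and in 12 it was larger. The empty-vector libraries entered both this test and the empty-vector calls, which favours genes with an extreme empty-vector difference. Such a split is therefore no test of whether Dnmt1 narrowed the gap. Empty-vector falls made up 93 of the 109, and 90 of those fell less with Dnmt1. Tfap2b was an example, with 1693 and 1540.2 in Tet3 +/+ and 71.5 and 82.3 in Tet3 m/m under Dnmt1 (log2 fold change −4.38, difference 3.23, adjusted p = 0.000308). Bmp5 differed likewise (2.61), at 210.8 and 156 against 102 and 75.4 under Dnmt1. Mest differed by 0.38 ± 0.08, which was under the fold threshold, and stayed at 195 and 197 against 34684 and 33178.

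On day 3 of differentiation without transfection, with 3 Tet3 m/m and 3 Tet3 +/+ samples in a separately normalized table, 1836 of 17915 genes (10.2%) were called. Of the empty-vector rises 368 recurred, 20.8% of those in both tables and 41.3% of the day 3 rises, and 553 falls recurred (28.3% and 61.2%). Another 31 rises and 25 falls were called in the opposite direction. The third Tet3 m/m sample of day 3 had the X stretch at 1.71, whereas the first and second were at 0.15 and 0.03. Without that sample 1692 genes were called, and 278 rises (15.7% and 36.2%) and 508 falls (26% and 56.7%) recurred. Mest (36223, 31972 and 35503 against 363, 516 and 365), Tfap2b and Igf2 fell on day 3 as well. Of 30 pluripotency genes, 7 were called higher on day 3 and 6 of the empty-vector rises were among them, with a day 3 median of 0.74. Nanog was at 1357, 1856 and 949 against 1493, 2219 and 3760.5, in groups that overlapped. Robo3, which rose with the empty vector, fell on day 3, from 425, 342 and 572 to 45.1, 26.1 and 80.4. Proneural and neuronal genes were lower on day 3 for 20 of 35 and higher for 1, and Nefm and Elavl3 were among genes that rose with the empty vector and fell on day 3. Fibroblast markers were lower for 0 of 14 and higher for 2 (median −0.08). Of 26 RA genes 4 were lower and 3 higher (median 0.05). Endoderm genes were higher for 9 of 29 and lower for 3, and Hox genes lower for 12 of 34 and higher for 3.

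In the Tet3-CD experiment, which tested the catalytic domain of Tet3, 1 Tet3 m/m and 1 Tet3 +/+ sample received the empty vector, so their ratios have no replicate check. By the study's methods these cells received another empty vector, during differentiation, and were collected at a later stage than the other samples, so stage, vector and experiment cannot be told apart. Of 17481 genes, 20.2% were over 1.5-fold higher and 16.1% over 1.5-fold lower in Tet3 m/m. Empty-vector rises were above that fold for 735 genes (42.0%, and 21.4% of the Tet3-CD rises) and below it in the opposite direction for 344, and falls for 653 (33.5% and 24.1%) and 424. Pluripotency genes had a median of 1.85 there, the same sign as before. Endoderm genes had a median of −1.87, with 27 of 30 lower, the opposite sign: Lama1 was at 196257 against 30088 in Tet3 m/m, and Cubn at 27912 against 5508. The higher level of endoderm genes in Tet3 m/m was thus not seen in this pair. Across all 4 comparisons, which thus differ in stage, 227 genes were higher each time, among them Vstm2l, Eomes, Gbx2, Dazl and Sycp2, and 315 were lower each time, among them Mest, Tfap2b, Serpinb9e, Upk3b, Ptn, Epha3 and Igf2. Outside the shifted regions these numbers were 225 and 149.

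**Figure D4:**
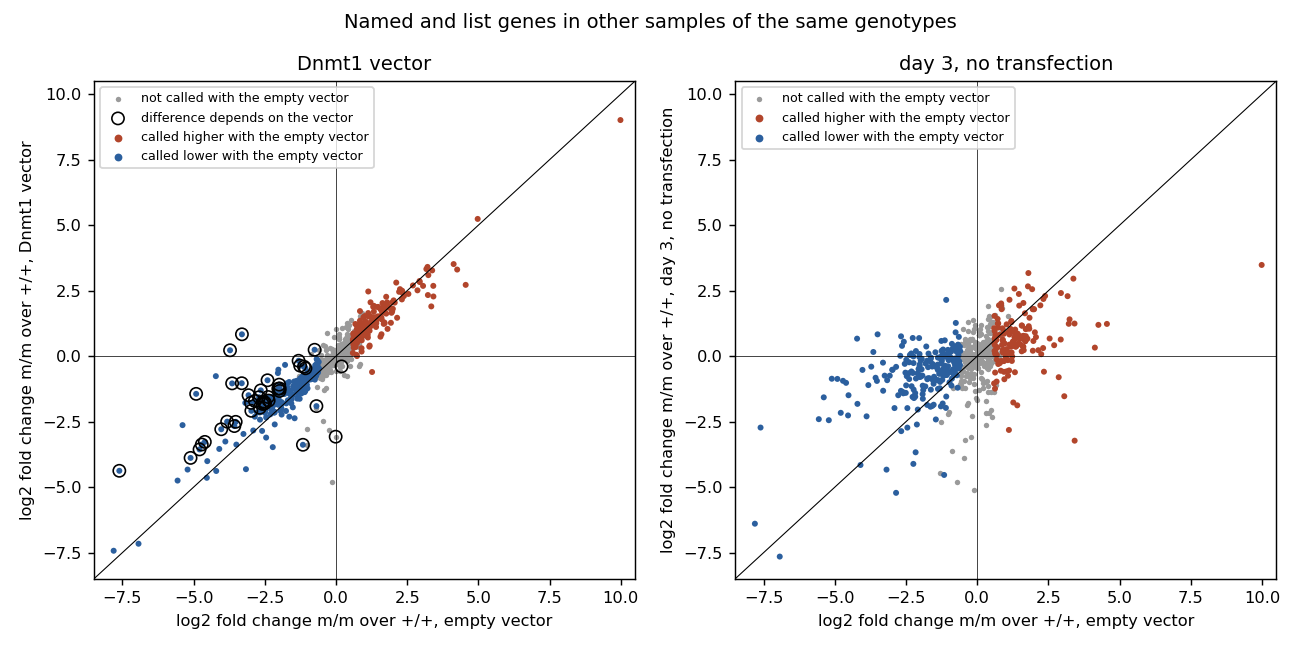
Log2 fold change of Tet3 m/m over Tet3 +/+ with the empty vector (horizontal axis) and with the Dnmt1 vector or on day 3 (vertical axes) for the genes of the lists and the named genes, 640 and 633 genes, with the diagonal of equal values. Circles mark the 41 plotted genes whose difference depends on the vector. With the Dnmt1 vector points follow the diagonal, most circles lie above it among the falls, and on day 3 the points spread more widely around 0.

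Tet3 -/- samples with the empty vector share the Tet3 +/+ samples of this comparison, so their values stand beside it and are not counted as support. Against Tet3 +/+, 4504 genes (24.9%) were called in Tet3 -/-, and 7141 (39.6%) when Tet3 -/- was tested directly against Tet3 m/m. Of the pluripotency genes, 26 of 30 were lower in Tet3 -/- than in Tet3 +/+ and 29 were lower than in Tet3 m/m. Nanog was at 526 and 567 in Tet3 -/-, below both other genotypes. Endoderm genes were lower in Tet3 -/- than in Tet3 m/m for 24 of 31, with Cubn at 847 and 709.9, and germline genes for 27 of 30, with Dazl at 87.7 and 56.1. Imprinted genes were higher in Tet3 -/- than in Tet3 m/m for 27 of 46 and lower for 3, Igf2 being at 29810.4 and 31948. Sox1 was lower in both lines, at 349 and 390.4 in Tet3 -/-. Chromosome 8, which carries Sox1, was also lower as a whole in both against these same Tet3 +/+ samples, and its part in the Sox1 values was not tested. Wnt6 lay on opposite sides of Tet3 +/+, at 7067 and 7313 in Tet3 -/-.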

How the data were processed

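The series holds 35 samples of several assays, and 4 of its RNA-seq samples (2 Tet3 m/m and 2 Tet3 +/+, empty vector) are compared here. Per the labels and the methods of the study, the authors trimmed reads with Trim Galore (0.6.7), aligned them with STAR (2.7.9a), used featureCounts for gene counts and DESeq2 for normalization. The genome was given as mm39 in the methods, and the labels also name mm10. The deposited signal values are counts divided by a size factor of each library, and 100.0% of them came out as whole reads within 0.01. Both Tet3 +/+ columns carry the same header, so their replicate numbers are not known, and "first" and "second" follow their order in the table.

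Values were analysed as log2(value + 1), so that fold changes of low genes are understated, for genes with a mean of at least 10 over the 12 samples of the experiment. All 6 groups were fitted together with limma (3.58.1, R 4.3.3), and genes were called by a fold change of more than 1.5 together with a p below 0.05 after Benjamini-Hochberg adjustment. The test across vectors was the interaction of genotype and vector in that fit. Day 3 samples were fitted separately in the same way, and tables normalized separately were not tested against each other. edgeR (4.0.16) and DESeq2 (1.42.0) on the recovered reads, other filters and pseudocounts, TMM rescaling and each sample left out in turn were the alternatives. The fitting script was tested on simulated data. Counting intervals are exact at 95% and, like floors of 3 reads per library for a count of 0, cover counting error only.

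The comparison, defined by genotype and vector, and the gene lists were chosen with earlier results of these data known. Named genes were the Tet and Dnmt genes and those the study discusses, the 12 largest rises and falls with a mean of at least 100 in the higher group, up to 4 called genes of each list in each direction, up to 3 abundant members of a list that were not called, and up to 6 genes of the vector test. Pax6, Sox2, Stmn2, Irx3, Irx5, Rarb, Cyp26a1, Pou5f1, Nanog, Lama1, H19, Plagl1, Dlk1, Elavl3 and Lefty2 as well as the Y genes, Eif1ax and Pdha1 were named beside this rule, after their values were seen, and members with unstable calls were passed over. A few genes that the rule would name are not reported here. Promoters came from RefSeq (GRCm38.p6). Only 69.5% of the tested genes had one there, so a check of promoter base composition over the called genes was void.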

Additional observations from a re-analysis of the deposited data

Results flagged for a closer look

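The difference between Tet3 m/m and Tet3 +/+ depended on the vector for 109 genes, by the interaction of genotype and vector in the limma fit, with an adjusted p under 0.05 and a difference of over 1.5-fold. A further view of the same test is that 1963 of 18055 genes had an unadjusted p under 0.05, where a share of 0.05 would pass by chance alone. After adjustment 236 genes had a p under 0.05 at any fold. The 6 largest differences follow, each as the log2 fold change with the Dnmt1 vector minus that with the empty vector.

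Prss22, a serine protease gene, differed by 4.1369 (adjusted p = 0.0133). It was at 23.7 and 17.4 in Tet3 +/+ and at 3.66 and 0 in Tet3 m/m with the empty vector, and at 8.52 and 6.04 against 12.5 and 14.7 with Dnmt1. Its empty-vector log2 fold change was −4.41 without m/m 1 and −2.19 without m/m 2. Sprr1a, of the cornified envelope, differed by 3.9449 (adjusted p = 0.00759), with 7.90 and 18.6 against 0 and 0 and with 4.26 and 6.04 against 5.36 and 6.93. Mir99ahg, a host transcript of microRNAs, differed by 3.4707 (adjusted p = 0.0112), at 36.6 and 67.3 against 1.83 and 0 with the empty vector and at 47.9 and 41.3 against 17.9 and 13.9 with Dnmt1. Its empty-vector log2 fold change was −5.66 without m/m 1 and −4.16 without m/m 2.

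Tfap2b differed by 3.2315 and Bmp5 by 2.6077, and both fell less in Tet3 m/m with the Dnmt1 vector. Chil1, a chitinase-like gene, differed in the opposite direction, by −3.0624. It was at 44.5 and 46.4 against 45.7 and 44.3 with the empty vector, values that overlapped, and at 70.3 and 60.4 against 8.94 and 5.20 with Dnmt1.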

How the results depend on the processing

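The empty-vector comparison called 3831 genes, and edgeR and DESeq2 on the recovered reads gave 1909 and 1870 rises and 2013 and 1910 falls. Leaving out each sample in turn gave 3513 to 3594 calls, 79 to 125 calls of the vector test, 3193 to 3395 calls with the Dnmt1 vector and 1250 to 1692 on day 3. Without a fold threshold 8230, 236 and 7980 genes were called in the empty-vector, vector and Dnmt1-vector comparisons. Tet3 lay between −1.6446 and −1.4215. Of 161 called named genes 20 lost the call in at least 1 of 13 settings and 0 reversed, and of 280 counts of list members 0 moved by over 1.5 times. Signs turned near 0 when samples were left out in turn for Chil1 (−0.0433 to 0.0167), Nnat (−0.0702 to 0.0236) and Stra8 (−0.0541 to 0.1957), none of which was called. With genes of a mean of at least 50, chromosome medians were 0.0548 (chromosome 1), 0.011 (2), 0.0074 (4), −0.0302 (5), −0.2765 (6), −0.0288 (7), −0.4619 (8), 0.0413 (9), 0.0169 (10), 0.0119 (11), 0.0468 (12), 0.0454 (13), −0.0211 (15), 0.0522 (16), −0.0015 (17), 0.0729 (X) and −0.8168 (Y, from −0.4132). The cause of these shifts was not tested. The count without the shifted regions (3229) and day 3 recurrence without the third Tet3 m/m sample (786 genes, from 921) were chosen after seeing the data.

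No paired analysis was possible because both Tet3 +/+ columns of the empty vector carry the same number. On day 3 a replicate block gave 1893 calls against 1836. Same-numbered day 3 samples hardly deviated together (correlations 0.082, 0.0286 and 0.002), so the numbers were not taken as a pairing, and 1 of 3 Tet3 +/+ samples correlated best with its own number.

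With 2 samples a group the spread is borrowed from 12 samples, and genes at a few reads (Frmpd4 in Tet3 +/+, Tfap2b in Tet3 m/m, Cer1, Nap1l5) have folds that a single sample moves. Gene counts show neither the allele nor the copy number.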
